A study of Mus musculus with 4 samples.

Results

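The cytosolic ribosomal protein genes were taken as the protein-coding genes whose mouse symbol starts with Rpl, Rps or Rplp and a digit, together with Rpsa, with the Rps6k kinases left out. By this rule 92 of the 55401 genes in the count files were members. Of these, 77 encode the standard proteins of the ribosome, 46 in the large subunit and 31 in the small subunit. A further 8 are paralogues, 6 are protein-coding genes with a pseudogene-style name, and Rps19bp1 shares only the letters of the symbol. RNA was sequenced from 4 libraries of C57BL/6 mice, 1 each of CLP kidney, CLP + MLT kidney, CLP heart and CLP + MLT heart. CLP (cecal ligation puncture) is an operation that lets gut bacteria leak into the abdomen and causes sepsis, and MLT is melatonin. All 4 groups therefore had the operation, and no sham group was analysed here. In the methods of the study, male mice aged 8 weeks drank melatonin at 25 μg/ml for 14 days before the operation, and kidneys were taken 24 h after it; the hearts are not described there, so their dose and time are unknown. Whether RNA was pooled from several mice is not stated, and neither is the meaning of the digit in the names of the melatonin libraries. With 1 library per group, no difference below has been set against the spread between mice, and no p-value is given.

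The ribosome reads mRNA and makes every protein of the cell. Its small subunit holds the mRNA and checks the match of codon and tRNA, and its large subunit joins the amino acids and carries the stalk that recruits the elongation factors. Cells need most of its proteins in equal numbers, and their genes are among the most highly transcribed and are known to move together. Their mRNAs are short and begin with a run of pyrimidines, the 5′ terminal oligopyrimidine tract, through which the kinase complex mTORC1 and the protein Larp1 set their translation. Paralogues replace a few of the proteins in particular tissues, as Rpl3l does for Rpl3 in striated muscle.

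Start-site sequences are given for genes that stood at the ends of the ranking in kidney or heart. Rps6 is included as a member whose ratio in kidney was close to 0. Only genes whose pyrimidine tract starts close to the annotated start were eligible, so every window shown had to hold a tract. Rpl11 and Rpsa, also at the ends of the ranking, had a promoter in the reference but no tract that close, and are not shown. RefSeq promoter windows (GRCm38.p6) were found for 66 of the 92 members and 57 of the 77 standard genes. Each stretch runs 5′ to 3′ on the gene's strand, from 30 bases before the annotated start to 20 bases after it, and capitals mark the pyrimidine tract.
Rpl38 (chr11:114668550-114668599, plus strand): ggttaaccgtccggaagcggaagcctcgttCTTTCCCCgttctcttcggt
Rplp2 (chr7:141447621-141447670, plus strand): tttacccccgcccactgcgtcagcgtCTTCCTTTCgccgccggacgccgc
Rpl15 (chr14:18270967-18271016, minus strand): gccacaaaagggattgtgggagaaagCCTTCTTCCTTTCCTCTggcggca
Rps21 (chr2:180257349-180257398, plus strand): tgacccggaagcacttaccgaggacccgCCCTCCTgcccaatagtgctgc
Rps6 (chr4:86857348-86857397, minus strand): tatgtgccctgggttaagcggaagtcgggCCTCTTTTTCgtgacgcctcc
A tract of a C followed by at least 4 pyrimidines, starting within 20 bases of the annotated start, was present in 43 of the 57 standard genes (75.4%), against 49.8% of 16521 promoters. The ETS factor motif CCGGAAG was present, on either strand, in 22 of the 57 (38.6%) against 12.4% of all promoters. It was also read in the Rpl38 and Rps21 windows above. The letters TCTCGCGA were present, on either strand, in 11 (19.3%) against 1.54%. The YY1 letters AAGATGGC were found in 4 (7.02% against 3.30%), the SP1 letters GGGGCGG in 12 (21.1% against 32.5%) and TATAAA in 5 (8.77% against 12.9%), again on either strand. Rps19, which was among the highest small subunit ratios in kidney, and Rps6 both held TCTCGCGA. The first site of these letters is shown in capitals with its flanks, and the Rps19 stretch holds them again in lower case near the end.
Rps19 (chr7:24884543-24884594, plus strand): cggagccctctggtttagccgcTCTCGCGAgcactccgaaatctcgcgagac
Rps6 (chr4:86857389-86857440, minus strand): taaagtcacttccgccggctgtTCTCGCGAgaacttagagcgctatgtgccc

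Reads counted on genes numbered 15883057 to 22927905 per library, 27.2% to 34.5% of the reads in each file. Multiply aligned reads, left uncounted, were 23.6% and 32.6% of the CLP and CLP + MLT kidney files and 38.6% and 37.0% of the heart files. Genes of the mitochondrial genome took 14.8% and 24.2% of the reads on genes in CLP and CLP + MLT kidney, and 31.6% and 36.0% in the hearts. The tissue labels fitted their markers: the 8 kidney tubule markers summed to 28132 and 35369 CPM, counts scaled to the size of the library, in the kidneys and 378 and 836 CPM in the hearts, while the 8 cardiomyocyte markers summed to 11.2 and 15.3 CPM in the kidneys and to 29416 and 19642 CPM in the hearts. Myl7, an atrial cardiomyocyte marker, went against the other 7, with 54 and 30 counts in the CLP and CLP + MLT kidney and 1 and 0 in the hearts. The 8 lymphocyte markers stayed at 1.05 to 2.33 CPM in all 4 libraries, with Ms4a1 at 0 in each, and the 8 macrophage markers summed to 170 and 234 CPM in kidney and 245 and 309 CPM in heart. The macrophage markers did not move alike. In kidney Lyz2 had 552 and 1219 counts and Cd14 had 787 and 69, and in heart Lyz2 had 998 and 2171 and C1qa had 888 and 508. The 8 neutrophil markers summed to 25.3 and 15.1 CPM in kidney and 54.0 and 39.7 CPM in heart, with Ly6g at 0 in every library, and the 6 red cell markers to 104 and 118 CPM in kidney and 252 and 229 CPM in heart. The part of these shifts in the results below was not tested, and in whole tissue fewer cells of a type and less RNA per cell cannot be told apart.

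The ribosomal protein genes took opposite directions in the 2 tissues. In kidney most of them were modestly higher in the CLP + MLT library than in the CLP library, and in heart nearly all were lower. Ratios are given as log2 of CLP + MLT over CLP after TMM scaling within the tissue, where 0 means no difference and 0.58 is a 1.5-fold difference, the fold that the study used. Intervals are exact 95% intervals that cover counting error only. In kidney 88 members had a mean of at least 10 counts and their median log2 ratio was 0.21 (quartiles 0.01 and 0.40), a ratio of 1.16, while the median of all 16932 genes was −0.01. In heart 86 members had a median of −0.33 (quartiles −0.50 and −0.19), a ratio of 0.794, while the median of all 15871 genes was −0.003. Removing the dependence of the ratio on transcript length, described below, brought the medians to 0.05 in kidney and −0.06 in heart.

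Few members passed 1.5-fold in either tissue, 12 in each, where 22.7% of all genes in kidney and 23.5% in heart did so. In kidney 11 of 88 lay past it on the higher side, where 10.6% of all genes did, and 1 on the lower side, where 12% of all genes did. In heart 1 of 86 lay past it on the higher side, where 10.7% of all genes did, and 11 on the lower side, where 12.7% did. The count on the side of the shift was thus near the background, and that on the other side was below it. The signs were more one-sided. Ratios above 0 were found for 67 of the 88 members in kidney (76.1%), against 48.9% of all genes, and below 0 for 21 (23.9%), against 51.1%. In heart 78 of the 86 were below 0 (90.7%), against 50.4% of all genes, and 8 above it (9.30%), against 49.6%.

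Summed over the 77 standard genes, the reads came to 2.24% of the reads on genes in CLP kidney, 2.27% in CLP + MLT kidney, 1.56% in CLP heart and 1.26% in CLP + MLT heart. As a share of the reads on nuclear genes alone these were 2.63%, 3.00%, 2.28% and 1.96%. The kidney libraries differed little as a share of all reads and more once the mitochondrial reads were left out, and the heart libraries differed in the same direction on both scales. The scale mattered in kidney: with scaling by library size only, which moved the median of all genes to −0.19, the members' median was 0.03, while in heart it was −0.27 with all genes at 0.06.

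**Figure D1:**
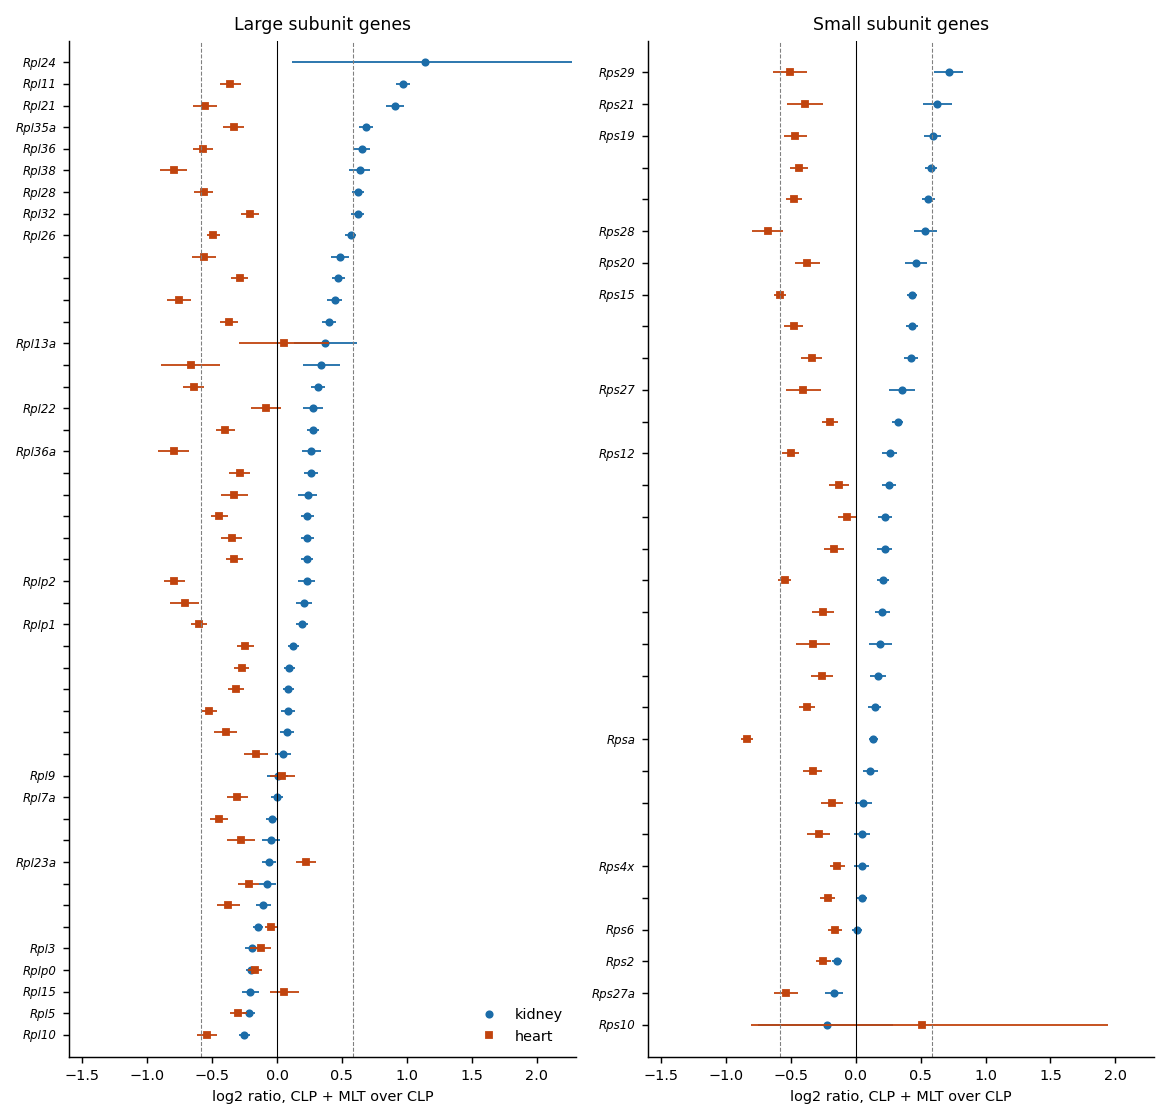
Log2 ratio of CLP + MLT over CLP (x axis) for the standard ribosomal protein genes (1 row per gene, with names on the rows of genes described in the text), large subunit on the left and small subunit on the right, for kidney (blue circles) and heart (orange squares), 1 library per group. Bars are exact 95% counting intervals, cut at the edge of the axis for Rpl24, and dashed lines mark 1.5-fold; most blue points lie right of 0 and most orange points left of it. Rpl24 in heart is left out because its mean was under 10 counts.

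Both subunits shifted by similar amounts. In kidney the median log2 ratio was 0.23 over the 46 standard large subunit genes and 0.22 over the 31 small subunit genes, and in heart it was −0.35 over 45 and −0.34 over 31. Small subunit genes were more uniform in kidney, where 28 of 31 had a ratio above 0, against 34 of 46 in the large subunit. In heart 30 of 31 small subunit genes and 41 of 45 large subunit genes were below 0. The large subunit took 1.53 times as many reads as the small subunit in CLP kidney and 1.49 times as many in CLP + MLT kidney, with 1.28 and 1.30 in the hearts.

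Among large subunit genes, Rpl11 had the highest ratio in kidney of those whose mean count reached 100. Together with Rpl5 and the 5S RNA, its protein forms the particle that also binds and inhibits Mdm2. The gene (ENSMUSG00000059291, chr4:136028265-136053428, minus strand, 6 exons in the transcript used) had 5172 counts in the CLP and 6419 in the CLP + MLT kidney (212 and 415 CPM), a log2 ratio of 0.97 (0.92 to 1.02), and 2961 and 2300 in the hearts (182 and 142 CPM), −0.36 (−0.44 to −0.28). Rpl5, its partner in that particle, had 11114 and 6064 counts in kidney (455 and 392 CPM), −0.22 (−0.26 to −0.17), and 4222 and 3422 in heart, −0.30 (−0.36 to −0.23). The partners therefore lay on opposite sides of 0 in kidney and on the same side in heart. However, 46.6% of the bases of Rpl5 lie on exons of Fam69a on the opposite strand. The strand setting of the counting is unknown, so the values of Rpl5 are uncertain.

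Rpl21 (ENSMUSG00000041453, chr5:146832890-146837032, plus strand), a large subunit protein, came next in kidney with 3144 and 3737 counts (129 and 242 CPM), 0.91 (0.84 to 0.98). Rpl35a, mutated in some families with Diamond-Blackfan anaemia, had 5347 and 5451 counts (219 and 352 CPM), 0.69 (0.63 to 0.74). In heart these genes stood at −0.55 (−0.64 to −0.46) and −0.33 (−0.41 to −0.26), and with the length dependence removed at −0.32 and 0.10. The other large subunit genes past 1.5-fold in kidney were Rpl36, Rpl38, Rpl28 and Rpl32, with ratios of 0.62 to 0.65, and Rpl24, which rested on 14 and 20 counts. Rpl11, Rpl21 and Rpl35a had intervals that lay wholly beyond 1.5-fold, as did Rpl36 and, in the small subunit, Rps29.

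At the other end of the large subunit in kidney, Rpl10, which joins the subunit late in its assembly, had 14112 and 7517 counts (578 and 486 CPM), −0.25 (−0.29 to −0.21). Rpl15 had 5257 and 2886 counts, −0.21 (−0.27 to −0.14). Rplp0, the base of the stalk, had 14635 and 8091 counts, −0.20 (−0.24 to −0.16), and Rpl3, which lines the peptidyl transferase centre, had 7495 and 4157, −0.19 (−0.25 to −0.14). The transcripts of Rpl10, Rpl15, Rplp0 and Rpl3, of 799 to 1358 bases, were longer than the family median of 729 bases. With the dependence on length removed, as described below, their kidney ratios stayed below 0, at −0.37, −0.32, −0.22 and −0.22 in that order. In heart Rpl10 had 3447 and 2366 counts, −0.54 (−0.61 to −0.46).

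In heart the base of the stalk and its tips had different ratios. Rplp0 had 6214 and 5509 counts there (382 and 340 CPM), −0.17 (−0.22 to −0.12). Rplp1, which with Rplp2 forms the mobile tips, had 5231 and 3444 counts (321 and 212 CPM), −0.60 (−0.66 to −0.54), and Rplp2 had 3656 and 2108 (225 and 130 CPM), −0.79 (−0.87 to −0.71). The intervals of base and tips did not overlap. In kidney the base was below 0, at the value given above, and the tips above it, with Rplp1 at 0.19 (0.15 to 0.24) and Rplp2 at 0.23 (0.16 to 0.29). The transcripts of the tips, of 499 and 421 bases, are shorter than the 1358 bases of Rplp0. With the dependence on length removed, the heart ratios were −0.04 for Rplp0, −0.17 for Rplp1 and −0.31 for Rplp2, and both tips were at −0.03 in kidney, on the same side as the base at −0.22.

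The lowest ratios of standard large subunit genes in heart were those of Rpl36a, Rpl38 and Rplp2. Rpl36a had 1528 and 877 counts, −0.80 (−0.92 to −0.68). Rpl38, known for its role in the translation of Hox mRNAs in the embryo, had 2091 and 1200 counts (129 and 74.0 CPM), −0.80 (−0.90 to −0.69), against 2661 and 2621 in kidney (109 and 169 CPM), 0.64 (0.56 to 0.71). Rpl38 was past 1.5-fold in both tissues, in opposite directions. With the length dependence removed it stood at 0.33 in kidney and −0.25 in heart, past 1.5-fold in neither. The highest ratio of the standard large subunit genes in heart was that of Rpl23a (ENSMUSG00000058546, chr11:78180932-78183584, minus strand), a protein at the exit of the nascent chain, with 2473 and 2875 counts (152 and 177 CPM), 0.22 (0.14 to 0.30). It was followed by Rpl15 at 0.06 (−0.05 to 0.17) and Rpl13a at 0.06 (−0.29 to 0.40), whose intervals held 0.

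Among small subunit genes in kidney, Rps29 had 1282 and 1335 counts (52.5 and 86.3 CPM), 0.72 (0.61 to 0.83). Rps21 had 1361 and 1334 counts (55.7 and 86.2 CPM), 0.63 (0.52 to 0.74), and Rps19, the gene most often mutated in Diamond-Blackfan anaemia, had 4079 and 3899 (167 and 252 CPM), 0.59 (0.53 to 0.66). These were the small subunit genes past 1.5-fold in kidney, and in heart they stood at −0.50, −0.39 and −0.46. With the length dependence removed, these heart values were 0.001, 0.11 and −0.12, so that Rps29 and Rps21 were no longer below 0. The lowest, among those with a mean of at least 100 counts, were Rps27a, which is made as a fusion with ubiquitin, at −0.17 (−0.24 to −0.10), Rps2 at −0.14 (−0.18 to −0.10) and Rps6 at 0.01 (−0.03 to 0.05). Rps6, the ribosomal target of the S6 kinases below mTORC1, had 13265 and 8470 counts in kidney (543 and 547 CPM) and 5434 and 4852 in heart (334 and 299 CPM), −0.16 (−0.21 to −0.10). Both ratios of Rps6 changed sign with the length dependence removed, to −0.09 in kidney and 0.09 in heart.

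Rpsa, which is a protein of the small subunit head and is also described as a laminin receptor, had the lowest ratio of the standard genes in heart among those whose mean count reached 100. The gene (ENSMUSG00000032518, chr9:120127689-120132369, plus strand, 6 exons) had 11540 counts in the CLP heart and 6435 in the CLP + MLT heart (709 and 397 CPM), −0.84 (−0.88 to −0.79). In kidney they were 16386 and 11395 (671 and 737 CPM), 0.13 (0.10 to 0.17), and −0.05 with scaling by library size only. Rpsa kept a ratio of −0.75 in heart once the length dependence was removed, the only standard gene left past 1.5-fold on the lower side. Within the small subunit, Rps28 followed with 1541 and 961 counts, −0.68 (−0.79 to −0.56), and then Rps15 with 9433 and 6275, −0.58 (−0.63 to −0.54). Rps4x, among the highest small subunit ratios in heart, stood at −0.14 (−0.20 to −0.08), and at 0.07 with the length dependence removed.

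Set side by side, 59 of the 76 standard genes with enough reads in both tissues were above 0 in kidney and below 0 in heart (77.6%), against 24.1% of 14592 genes. For 52 of the 76 both intervals also left out 0, against 1088 of the 14592 genes. Another 12 were below 0 in both tissues (15.8%, against 26.4% of all genes), and 2 were above 0 in both (2.63%, against 24.8%). The remaining 3 were below 0 in kidney and above 0 in heart (3.95%, against 24.7%). Across the 76 genes the ratio in kidney and the ratio in heart were inversely related, with a Spearman rho of −0.47 and a Pearson r of −0.43, and with rho of −0.28 and r of −0.33 after removal of the length dependence. This is a description across genes that share their 4 libraries, and genes are not independent replicates.

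**Figure D2:**
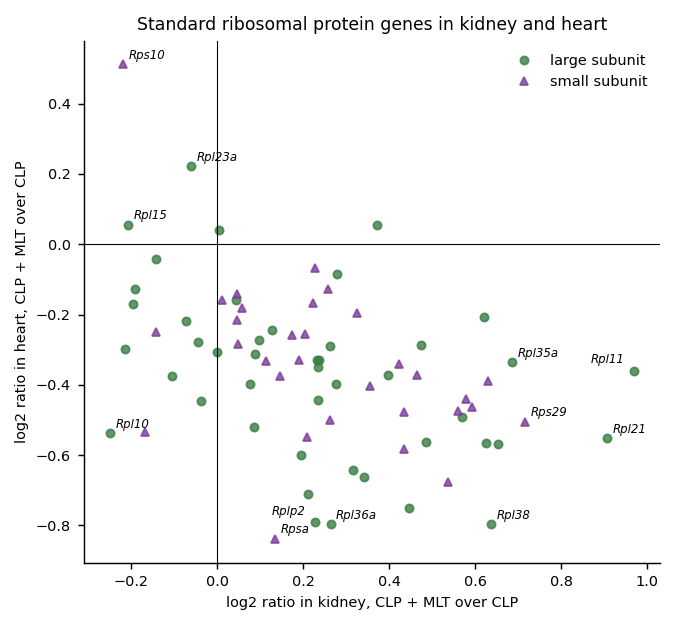
Log2 ratio of CLP + MLT over CLP in kidney (x axis) against heart (y axis) for the 76 standard genes that passed the count filter in both tissues, large subunit as circles and small subunit as triangles. The lower right quadrant, higher in kidney and lower in heart, holds 59 of the 76 genes, and Rps10 at the upper left rests on 9 and 13 heart counts.

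Other short transcripts lay on the same side of 0 as the ribosomal protein transcripts in both tissues. The standard genes have a median transcript length of 729 bases, against 2277 over all 21897 protein-coding genes. In kidney the 17 standard genes under 500 bases had a median log2 ratio of 0.35, the 29 genes of 500 to under 800 bases 0.23, and the 31 genes of 800 bases or more 0.13. Other protein-coding genes under 500 bases had a median of 0.28 (115 genes), those of 500 to under 800 bases 0.14 (471 genes), those of 800 to under 1200 bases 0.04, and those of 4000 bases or more −0.02.

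In heart the order turned over. Standard genes under 500 bases had a median of −0.50, those of 500 to under 800 bases −0.39 and those of 800 bases or more −0.26, while other protein-coding genes under 500 bases had −0.53, those of 500 to under 800 bases −0.28, those of 800 to under 1200 bases −0.18 and those of 4000 bases or more 0.06. In the class of 500 to under 800 bases, 82.8% of the standard genes and 62.8% of the other genes were above 0 in kidney, and 92.9% and 69.4% were below 0 in heart. Over the standard genes the ratio was related to transcript length with a Spearman rho of −0.40 in kidney and 0.38 in heart. With a smooth trend on length over all protein-coding genes removed, the median of the standard genes was 0.09 in kidney and −0.06 in heart, with 50 of 77 above 0 in kidney and 50 of 76 below 0 in heart. By subunit, over all members with enough reads, it was 0.03 for the large and 0.08 for the small subunit in kidney, and −0.07 and −0.001 in heart. With the same trend removed, the median of all genes was −0.03 in kidney and 0.03 in heart. The share of all genes on each side of 0 under that setting is not given, so these sign counts stand without a background.

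**Figure D3:**
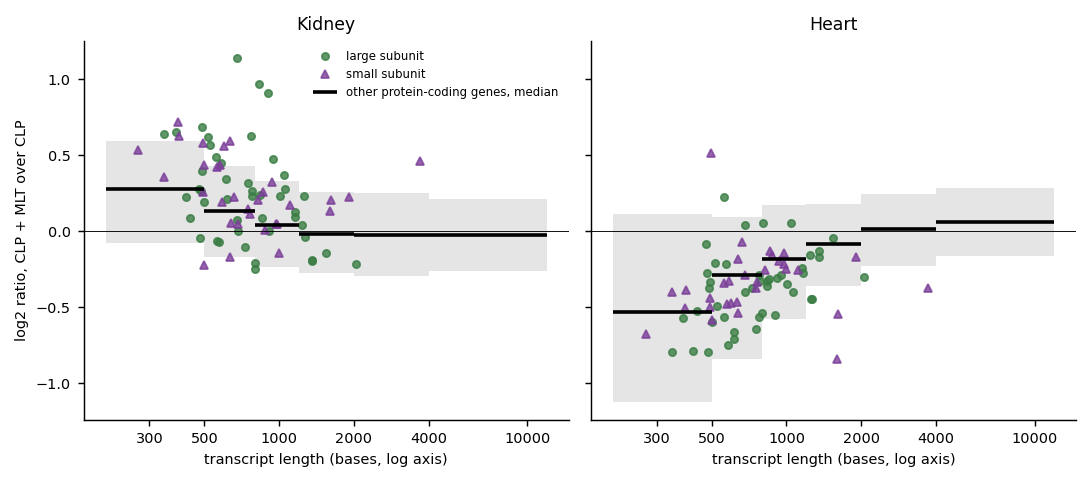
Log2 ratio of CLP + MLT over CLP (y axis) against annotated transcript length in bases (x axis, log scale) in kidney and heart, with standard large subunit genes as circles and small subunit genes as triangles. Black lines are medians and grey boxes the quartiles of the other protein-coding genes in 6 length classes; the lines fall from 0.28 to −0.02 in kidney and climb from −0.53 to 0.06 in heart. Rpl24 is left out in heart for low counts.

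After removal of the length dependence, Rpl11 at 0.86, Rpl21 at 0.82 and Rpl24 at 0.98 were the standard genes past 1.5-fold in kidney. In heart they were Rpsa at −0.75, Rpl23a at 0.61 and Rps10 at 0.94. Rpl24 and Rps10 rest on few counts, which leaves Rpl11, Rpl21, Rpsa and Rpl23a. Rpl21 shares 50-base words with 81 pseudogenes, and the genes that share words with it had 5467 counts in CLP kidney, more than its own 3144. Rpl23a has 55.4% of its bases on exons of Tlcd1 on the opposite strand, and no source used here gives the strand setting of the counting. The values of Rpl21 and Rpl23a are therefore uncertain. Annotated lengths limit this reading, since some genes have only a long model, such as Rps20 with 3706 bases for a coding length of 357 bases.

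In level, the standard genes were spread over a wide range, although most of their proteins are needed in equal numbers. In CPM per kilobase of transcript, the median gene stood at 351 in CLP kidney, 396 in CLP + MLT kidney, 242 in CLP heart and 183 in CLP + MLT heart. Rps15, a protein of the small subunit head, was highest in all 4 libraries, at 1029 and 1391 CPM per kilobase in kidney and 1159 and 774 in heart. Rpl26, which is also known to bind the p53 mRNA, was among the 3 highest throughout, at 769 and 1140 in kidney and 832 and 592 in heart. The order of the genes was kept between the CLP tissues, with a Spearman rho of 0.84 over 77 genes. The highest places depend on the length used. Per kilobase of coding sequence, Rpl41, with a coding length of 75 bases, was highest in all 4 libraries. It stood at 3965 and 4205 in kidney and at 4306 and 3001 in heart. Rps15 was then 2nd in each library. Rpl26 was 6th in CLP kidney, 3rd in CLP + MLT kidney and 4th in both hearts.

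The lowest levels belonged to Rpl24, Rps10 and Rpl13a in every library. Rpl24, which bridges the subunits, had 14 and 20 counts in the CLP and CLP + MLT kidney and 9 and 3 in the hearts. Rps10, a protein of the mRNA entry side, had 92 and 50 in kidney and 9 and 13 in heart. Rpl13a, known from the GAIT complex that silences inflammatory mRNAs, had 312 and 256 in kidney and 138 and 143 in heart. These are the 3 standard genes with at least 50% of their transcript bases inside an exon of another gene on the same strand: Gm28037 covers 71.5% of Rpl24, RPS10-NUDT3 covers 91.6% of Rps10, and Gm45713 with Mir5121 covers 59.3% of Rpl13a. The overlapping genes themselves were listed at 0 counts in all 4 libraries, and reads that fell on more than 1 gene and were left uncounted made up 1.17% to 1.37% of each file. The ratios of these genes are therefore uncertain.

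**Figure D4:**
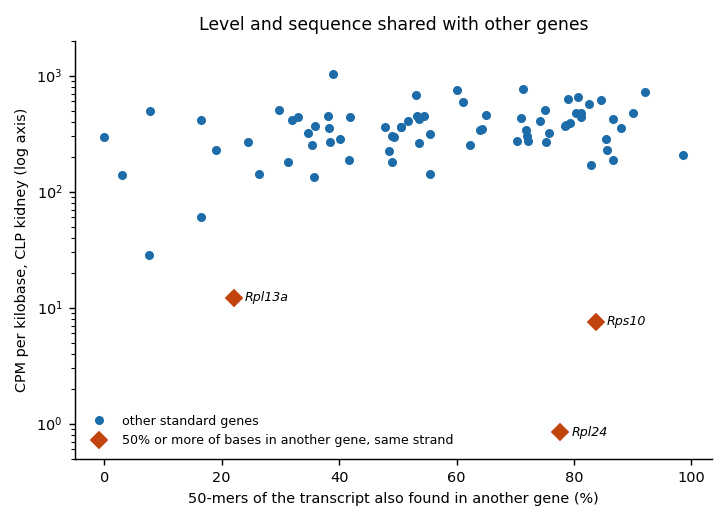
Level of each of the 77 standard genes in the CLP kidney, in CPM per kilobase of transcript (y axis, log scale), against the percent of its 50-base words that also occur in a transcript of another gene (x axis). Diamonds mark Rpl24, Rps10 and Rpl13a, which have at least 50% of their bases in an exon of another gene on the same strand and lie at the bottom of the plot, between 0.847 and 12.2 CPM per kilobase.

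Mice carry many processed copies of these genes, and 76 of the 77 standard genes shared some 50-base word with an annotated pseudogene, up to 120 pseudogenes for Rpl7a. Over the standard genes a median of 55.4% of the 50-base words of the transcript also occurred in another gene. The 47 genes with at least 50% shared words had medians of 0.23 in kidney and, for 46 of them, −0.39 in heart, and the 30 genes under 50% had 0.23 and −0.31. The directions thus held in genes with mostly unique sequence. Of 294 pseudogenes named after a ribosomal protein, 78 had a mean of at least 10 counts in kidney, with a median log2 ratio of 0.11, and 67 in heart, with −0.36. With the length dependence removed these medians turned to −0.09 and 0.03. A read cannot be placed with certainty between a gene and its copy, so counts of both are uncertain.

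The paralogues were described apart because they replace or resemble a standard protein. Rpl3l, which takes the place of Rpl3 in heart and skeletal muscle, had 135 and 70 counts in the CLP and CLP + MLT kidney and 4871 and 3435 in the hearts. It made up 63.3% (62.2 to 64.4) of the summed Rpl3 and Rpl3l counts in CLP heart and 57.1% (55.9 to 58.4) in CLP + MLT heart, against 1.77% and 1.66% in the kidneys. The log2 ratio in heart was −0.50 (−0.56 to −0.44) for Rpl3l and −0.13 (−0.20 to −0.05) for Rpl3. The balance of the pair thus differed between the heart libraries, with intervals that did not overlap, in the sense of less Rpl3l in CLP + MLT. The sum of the cardiomyocyte markers was also lower there, with a log2 ratio of −0.64. These markers did not move alike: Myl2 had 78757 and 31216 counts, Ryr2 10785 and 9417, and Actc1 was higher, with 3989 and 5485. Their part was not tested. No 50-base word of Rpl3l occurs in another gene, while 85.6% of those of Rpl3 do. The first 60 bases of the coding sequences (GENCODE M21, GRCm38) show how far the pair has diverged, with capitals at the 13 positions where Rpl3l differs from Rpl3.
Rpl3 (gene at chr15:80077791-80091868, minus strand): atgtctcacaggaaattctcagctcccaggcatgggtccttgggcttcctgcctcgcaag
Rpl3l (gene at chr17:24727820-24736143, plus strand): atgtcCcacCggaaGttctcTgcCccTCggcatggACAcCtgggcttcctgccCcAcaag

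Rps27l, a p53 target that resembles Rps27, was a kidney gene among these libraries. It had 2506 and 1920 counts in kidney and 289 and 255 in heart, 58.8% and 57.4% of the summed Rps27 and Rps27l counts in kidney and 21.6% and 24.4% in heart. Other genes hold 98.6% of the 50-base words of Rps27 and 22.4% of those of Rps27l, and multiply aligned reads were not counted. Rps27 may therefore be undercounted, and these shares do not show which of the pair is more abundant. Its ratios were 0.27 (0.19 to 0.36) and −0.18 (−0.42 to 0.07), and those of Rps27 were 0.35 (0.25 to 0.46) and −0.40 (−0.54 to −0.27). Rps27rt is a single-exon copy whose coding sequence of 252 bases is identical to that of Rps27 at all 252 positions, so its 781, 546, 375 and 308 counts cannot be told apart from Rps27 within the coding sequence. Rps27l matches at 192 of the 252. The first 60 coding bases are shown to make this visible, with capitals where a copy differs from Rps27.
Rps27 (gene at chr3:90212522-90213651, minus strand): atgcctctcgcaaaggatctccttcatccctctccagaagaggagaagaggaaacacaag
Rps27rt (gene at chr9:114982366-114982739, minus strand): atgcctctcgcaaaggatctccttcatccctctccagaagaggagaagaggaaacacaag
Rps27l (gene at chr9:66946086-66949516, plus strand): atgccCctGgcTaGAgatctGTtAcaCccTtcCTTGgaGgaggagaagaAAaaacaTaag

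Rpl22l1, which stands in for Rpl22 when that gene is lost, had 487 and 317 counts in kidney, 0.04 (−0.17 to 0.25), and 143 and 185 in heart, 0.37 (0.05 to 0.70). It was 9.82% of the pair in CLP heart (8.34 to 11.5) and 13.0% in CLP + MLT heart (11.3 to 14.9), with overlapping intervals. Rpl7l1 had 1633 and 981 counts in kidney, −0.08 (−0.19 to 0.04), and 306 and 304 in heart, 0.00 (−0.24 to 0.23). The paralogues known from testis had at most 2 counts. Rpl10l was at 0 in all 4 libraries, which allows up to 0.131 to 0.189 CPM, and Rpl39l had 0, 0, 1 and 2 counts. Rpl36al had 25, 10, 1 and 8 counts, and 63.1% of its bases lie inside exons of Gm49383 on the same strand.

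**Figure D5:**
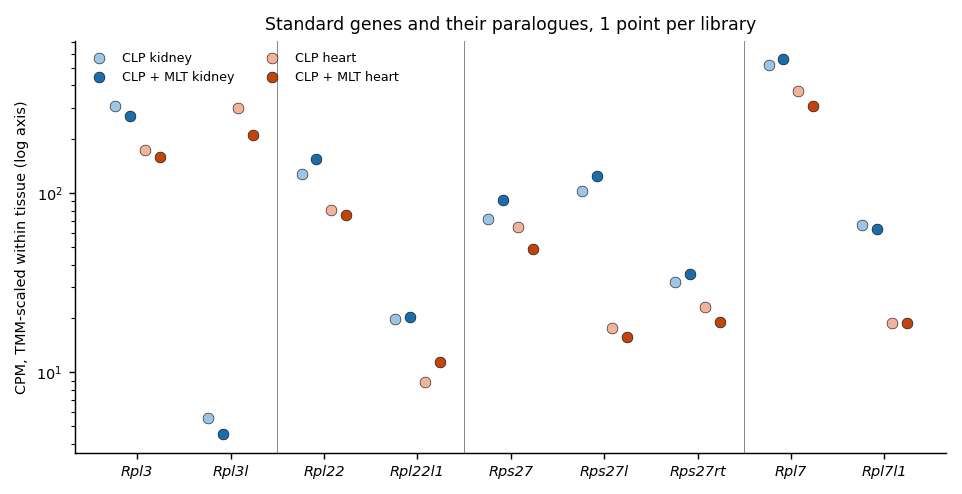
Level in CPM, TMM-scaled within each tissue (y axis, log scale), of 4 standard genes and their paralogues, with 1 point per library in the 4 colours of the legend and vertical lines between the families. Rpl3l lies at 299 and 212 CPM in the hearts and at 5.53 and 4.53 CPM in the kidneys, and Rps27l is higher in kidney than in heart.

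Of the 6 protein-coding genes with a pseudogene-style name, Rpl36-ps4 and Rpl9-ps1 were at 0 in all 4 libraries. Rps12-ps3 had 1030 and 745 counts in kidney and 646 and 600 in heart, and all of its 50-base words occur in other genes. Rpl9-ps6 had 468 and 207 in kidney, −0.52 (−0.76 to −0.28), and 264 and 183 in heart, −0.52 (−0.80 to −0.25). The other 2, Rpl10-ps3 and Rpl36a-ps1, had 14 to 74 counts. Rps19bp1, a regulator of Sirt1 and no part of the ribosome, had 513 and 381 counts in kidney, 0.23 (0.03 to 0.42), and 62 and 93 in heart, 0.59 (0.11 to 1.08), the only member past 1.5-fold on the higher side in heart. Outside the symbol rule, Fau, which encodes the small subunit protein eS30 behind a ubiquitin-like domain, had 5800 and 4883 counts in kidney, 0.41 (0.35 to 0.47), and 3073 and 2190 in heart, −0.48 (−0.56 to −0.40). Rack1, a scaffold on the small subunit head, stood at −0.04 (−0.09 to 0.01) and −0.06 (−0.13 to 0.01).

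Each of the 4 lists of genes that work with the cytosolic ribosome had a median below 0 in kidney. Among 21 elongation factors and other mRNAs known to carry the pyrimidine tract, the median log2 ratio was −0.09 in kidney and −0.06 in heart, with 0 past 1.5-fold in kidney and 1 on each side in heart (4.76%, against 10.7% of all genes higher and 12.7% lower). The heart median was 0.05 with the length dependence removed. Eef1a1, which brings the tRNA to the ribosome, had 93880 and 43442 counts in kidney, −0.45 (−0.47 to −0.44), and 20064 and 23469 in heart, 0.23 (0.20 to 0.26), opposite to the ribosomal protein genes in both tissues. Eef1d, a subunit of its exchange factor, was lower in heart with 2312 and 1235 counts, −0.90 (−1.001 to −0.80), and the small nucleolar RNA host Snhg1 was higher with 112 and 172, 0.62 (0.27 to 0.98). The median length of this list was 1506 bases.

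Initiation factors had medians of −0.25 in kidney and −0.10 in heart over 32 genes. Of these, 1 lay past 1.5-fold on each side in each tissue (3.13%), under the 10.6% to 12.7% of all genes. In kidney these were Eif6, which keeps the large subunit from joining too early, with 1423 and 372 counts, −1.28 (−1.45 to −1.11), and Eif4g3, a scaffold of the cap complex, with 4424 and 4277 counts, 0.61 (0.55 to 0.67). In heart they were Eif3k with 1187 and 753 counts, −0.65 (−0.79 to −0.52), and Eif1a with 208 and 312, 0.59 (0.33 to 0.85). Assembly factors and subunits of RNA polymerase I had medians of −0.08 and −0.03 over 56 genes, with 0 past 1.5-fold in kidney and 5 in heart, 3 higher (5.36%) and 2 lower (3.57%), again under the shares of all genes. Among these, Gnl3 had 275 and 448 heart counts, 0.71 (0.49 to 0.93), Ddx51 240 and 390, 0.70 (0.47 to 0.94), and Nhp2 292 and 166, −0.81 (−1.09 to −0.53).

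The list of mTORC1 genes and other regulators had medians of −0.25 over 29 genes in kidney, 3 of them past 1.5-fold lower (10.3%, against 12% of all genes). In heart the median was −0.18 over 28 genes, with 5 lower (17.9%, against 12.7%) and 2 higher (7.14%, against 10.7%). Myc, a transcription factor that drives ribosome production, had 499 and 133 counts in kidney, −1.25 (−1.54 to −0.97), and 161 and 125 in heart, −0.36 (−0.71 to −0.01). Eif4ebp1, the mTORC1 target that blocks the cap-binding protein, had 635 and 243 counts in kidney, −0.73 (−0.95 to −0.51). Ddit4, an inhibitor of mTORC1, had 803 and 428 in heart, −0.90 (−1.08 to −0.73), and Castor2, an arginine sensor, 551 and 309, −0.83 (−1.04 to −0.63).

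The mitochondrial ribosome, which translates the mitochondrial genome, was set beside the cytosolic one. Its 77 genes with enough reads had a median of 0.03 in kidney, with 2 past 1.5-fold higher (2.60%) and 1 lower (1.30%), and of −0.44 in heart, with 1 higher and 31 lower, or 40.3% against the 12.7% of all genes. In kidney Mrps21 was at 0.69 (0.60 to 0.78), Mrps6 at 0.67 (0.57 to 0.76) and Mrps12 at −0.77 (−0.995 to −0.54). In heart Mrpl51 had 1848 and 678 counts, −1.44 (−1.57 to −1.31), Mrpl54 was at −1.32 (−1.55 to −1.10) and Mrps21 at −1.32 (−1.47 to −1.17). The nuclear subunits of complex I, short and abundant mRNAs of the respiratory chain, went the way of the ribosomal protein genes and further in heart: the median of 35 genes was 0.32 in kidney, with 9 past 1.5-fold higher (25.7%), and −1.35 in heart, with 29 lower (82.9%). With the length dependence removed the complex I medians were 0.23 and −0.91, where those of the standard ribosomal protein genes were 0.09 and −0.06, and the medians of the mitochondrial ribosomal proteins were −0.02 and −0.34. Examples were Ndufb7 at 0.87 (0.81 to 0.93) in kidney and −1.52 (−1.58 to −1.46) in heart, and Ndufc1 at 0.95 (0.82 to 1.08) and −1.43 (−1.57 to −1.29). These lists were drawn from the same libraries and are described by their counts and medians only.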

How the data were processed

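Counts of reads per gene were analysed for 4 libraries, 1 per group. Per the methods and processing notes of the authors, trim-galore was run on the reads, HISAT2 2.1.0 placed them on mm10, and HTSeq counts were deposited with no normalization. The version of HTSeq, its strand setting and the annotation it read are not stated, so overlapping and antisense genes are uncertain. The 5 totals that end each file name no gene and were left out: reads on no gene made up 29.6% to 37.7% of a file.

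From the deposited counts, TMM factors were computed within each tissue (R 4.3.3, edgeR 4.0.16), and DESeq2 1.42.0 size factors as an alternative. Other values came from Python 3.11.15 with numpy 2.4.6, pandas 2.3.3, scipy 1.17.1 and statsmodels 0.14.6, and figures from matplotlib 3.10.9. A gene entered the ratios of a tissue when its mean count there reached 10. Ratios used a prior count of 0.5. Intervals are 95% Clopper-Pearson intervals, and a count of 0 was bounded by a floor of 3 counts; PCR copies are not independent molecules, so both cover counting error only. The study states edgeR with a fold and a p-value; only the fold of 1.5 was applied, as 1 library per group gives no dispersion.

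Symbols, transcripts and overlaps came from GENCODE M21 (GRCm38), in which 55141 of 55401 identifiers were found. Per gene, the protein-coding basic transcript with the best APPRIS rank, the longest coding sequence and then the shortest length was used. Promoters came from RefSeq. The steps were tested on simulated counts. The members and the gene lists, written from general knowledge, were chosen with earlier results of these data known. Named were the 3 highest and lowest standard genes per tissue and subunit whose mean count reached 100, the stalk genes, Rpsa, Rps6, Rpl3, Rpl5, Rpl11, Rps27a, the paralogues, Fau, Rack1, the extremes in level and up to 3 genes per list past 1.5-fold. Others, such as Eef1a1 and Rpl36, were named after their values were seen. Some genes that this rule names are not reported here.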

Additional observations from a re-analysis of the deposited data

Results flagged for a closer look

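The large subunit genes differed between the tissues: their median log2 ratio was 0.19 in kidney and −0.35 in heart over the members with enough reads, a difference of 0.54. The small subunit genes did the same, with 0.22 in kidney and −0.33 in heart, a difference of 0.55. Rpl38, the standard gene past 1.5-fold in both tissues in opposite directions, stood at 0.64 in kidney and −0.80 in heart, a difference of 1.43. With the length dependence removed its ratios were 0.33 and −0.25, and it was past 1.5-fold in neither tissue. Each group was 1 library, so these differences were not tested. The transcripts of other short genes differed in the same directions, and the share of reads on the mitochondrial genome was higher in the CLP + MLT library of both tissues; their part was not tested. No group has the 4 or more samples that a search for outlying samples needs.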

How the results depend on the processing

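The median log2 ratio of the members kept its sign in both tissues under every alternative that was run, but taken by subunit the small subunit median in heart turned from −0.33 to 0.005 with the length trend fitted without the members. In kidney it was 0.21, and it moved to 0.028 with scaling by library size only, to 0.049 with the length trend removed and to 0.063 with that trend fitted without the members. In heart it was −0.33 and moved to −0.055 and −0.045 with the same length trends. The other alternatives (DESeq2 size factors, upper quartile, TMM without mitochondrial, haemoglobin and ribosomal protein genes, other filters and prior count, GC trend, pseudogene counts added, standard genes only, and the members with few shared words) left it between 0.20 and 0.23 in kidney and, with library size only, between −0.34 and −0.27 in heart. The count past 1.5-fold in kidney was 12, and it was 5 with library size only, 1 at 2-fold, 5 where the whole interval had to pass, 5 under either length trend and 2 among members with under 50% shared words and no overlap. In heart it was 12, and it was 0 at 2-fold and 6 for the whole interval. It was 5 under either length trend and 2 among the members with few shared words, and these last subsets hold fewer genes. Of all 16932 genes in kidney, 1149 lay past 1.5-fold higher and 3172 lower with library size only. With the length trend removed these were 1634 and 2220, and in heart 2092 and 1610 of 15871 genes. For the other settings of these counts the share of all genes is not given here. The length trend fitted without the members and the subset with few shared words were chosen after seeing the data. With the length trend removed, 8 of 41 named genes changed sign in kidney and 12 of 39 in heart, and with library size only 7 and 2 did. Those that turned with length included Rplp1, Rplp2, Rpl41, Rpl22l1, Rps27rt, Rps4x and Rps6 in kidney and Rack1, Rpl3, Rpl35a, Rpl7l1, Rps21, Rps27l, Rps27rt, Rps29, Rps4x and Rps6 in heart. No paired analysis was possible because each group holds 1 library, and for the same reason no library could be left out. Low counts limit Rpl24 and Rps10, with under 100 in every library, and both overlap another gene on the same strand, as described above. The spread between mice is unknown.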
